A study of Caenorhabditis elegans with 2 samples.

Results

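The regions described here are sites near the starts of protein-coding genes where GFP-tagged LIN-11 was recovered from chromatin of late Caenorhabditis elegans embryos, away from genes for small structural RNAs. LIN-11 is a LIM homeodomain transcription factor, known for its part in forming vulval cells and several types of neuron. The worms were strain OP62, unc-119(ed3) III; wgIs62, in which a transgene gives LIN-11 a GFP and FLAG tag at its C terminus. Embryos of mixed sex, labelled late embryonic and 4.25 hour, were synchronised by egg bleaching, and sonicated chromatin was precipitated with an antibody against GFP (chromatin immunoprecipitation and sequencing, ChIP-seq). The series holds 1 group of 2 biological replicates, so it allows no comparison of conditions. Every value is an average over all cells of whole embryos, and reads from the transgene cannot be told apart from those of the endogenous lin-11 gene.

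Members were taken from the authors' 560 reproducible regions, of which 539 lay on nuclear chromosomes. A region was a member when its summit lay within 1000 bp of a protein-coding transcription start and not within 200 bp of a tRNA, snoRNA, snRNA, rRNA or miRNA gene, in Ensembl's annotation of the WBcel235 assembly. This gave 223 members, and 98 further regions near protein-coding starts were set aside because a small RNA gene lay within 200 bp. The members were 2.41% of the 9254 regions of the authors' pooled list, made from both replicates, that met the same distance rules. Reproducible regions were those of highest signal in the pooled list, so the members were chosen by the pooled signal, which is given only as a description. Signal is the value the authors' peak caller gave each region relative to a shared control. Among members it had a median of 156 and reached from 117 to 875.

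A promoter is the stretch of DNA before a gene's start where transcription factors and RNA polymerase II assemble. In the compact genome of C. elegans, neighbouring genes often start back to back and share the DNA between them, and many genes lie closely spaced on one strand in operons that are transcribed from the promoter of the first gene. Many worm messenger RNAs lose their first stretch to trans-splicing of a leader RNA, so an annotated start can lie downstream of the place where transcription begins. Homeodomain proteins are known to bind AT-rich sites built around TAAT.

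The DNA at the summits is shown first for 4 of the 6 strongest members, since the signal was highest there. Each line is the 101 bp centred on the summit, on the plus strand of WBcel235, from RefSeq's sequence. Capitals mark elements A, B and E, which are described below, read on either strand. At atx-2 element E lies across the free bases of element A, so the capitals run on there. The windows of K12H4.5 and ftt-2 hold none of these elements.
K12H4.5 (chrIII:8043911-8044011, plus strand): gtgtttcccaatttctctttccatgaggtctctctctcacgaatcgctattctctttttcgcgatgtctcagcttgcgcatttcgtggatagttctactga
atx-2 (chrIII:10461278-10461378, plus strand): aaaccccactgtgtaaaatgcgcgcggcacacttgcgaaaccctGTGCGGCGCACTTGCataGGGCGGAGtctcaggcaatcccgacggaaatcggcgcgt
ears-2 (chrIV:390452-390552, plus strand): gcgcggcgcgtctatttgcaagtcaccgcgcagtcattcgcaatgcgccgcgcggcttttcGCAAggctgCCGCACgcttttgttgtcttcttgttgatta
ftt-2 (chrX:11605889-11605989, plus strand): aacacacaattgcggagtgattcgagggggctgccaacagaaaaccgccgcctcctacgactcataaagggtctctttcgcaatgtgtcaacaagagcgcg

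The windows were searched for every 6-letter word to see what they share. The word most enriched over all promoter windows was CGCACG, in 19.7% of member windows and in 1.33% of 19863 promoter windows of the same width. Each promoter window was centred 175 bp upstream of a protein-coding start, not on a summit, so it covers only part of a promoter. The windows of the members' own genes were not left out. The next was CCGCAC, in 22.4% of member windows and 1.57% of promoter windows. Both overlap a longer arrangement, named here element A: GCAA, any 5 bases, then CCGCAC. Element A is shown at 7 members so that the fixed letters, in capitals, can be read against their varying neighbours.
atx-2 (chrIII:10461309-10461349, minus strand): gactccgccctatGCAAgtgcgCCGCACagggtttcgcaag
ears-2 (chrIV:390500-390540, plus strand): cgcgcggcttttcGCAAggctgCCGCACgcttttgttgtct
C46F11.4 (chrIII:3664421-3664461, plus strand): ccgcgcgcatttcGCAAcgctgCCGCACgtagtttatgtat
F39G3.3 (chrV:4731566-4731606, minus strand): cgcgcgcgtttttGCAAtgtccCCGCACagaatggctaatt
usp-4 (chrIV:6756641-6756681, minus strand): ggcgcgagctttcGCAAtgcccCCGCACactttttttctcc
npp-8 (chrIV:1595985-1596025, plus strand): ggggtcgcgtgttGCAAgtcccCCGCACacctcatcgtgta
rps-28 (chrIV:1659239-1659279, minus strand): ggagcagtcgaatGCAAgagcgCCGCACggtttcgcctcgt

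Further elements were written down from the same ranking. Element B is CTCCGCCC, element C is AAACGCGC, element D is TGCG, any base, then CAGCA, and element E is AAGTGCGC. All 5 were chosen after the words in these windows had been seen, so their shares among the members describe the choice and are no test. Capitals mark element B in the first 3 lines that follow, element C in the next 3 and element D in the last 3.
C16C10.4 (chrIII:4171195-4171234, plus strand): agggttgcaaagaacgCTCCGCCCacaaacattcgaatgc
tasp-1 (chrIII:10759176-10759215, minus strand): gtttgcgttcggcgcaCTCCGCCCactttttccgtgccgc
mrpl-39 (chrV:1821422-1821461, plus strand): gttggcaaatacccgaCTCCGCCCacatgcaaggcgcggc
snx-13 (chrIV:17087639-17087678, plus strand): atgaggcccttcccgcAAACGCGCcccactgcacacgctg
dnj-9 (chrII:4851788-4851827, plus strand): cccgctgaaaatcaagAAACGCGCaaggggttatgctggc
sec-3 (chrX:3100031-3100070, minus strand): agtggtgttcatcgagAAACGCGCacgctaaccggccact
fbxb-85 (chrIII:10849010-10849049, plus strand): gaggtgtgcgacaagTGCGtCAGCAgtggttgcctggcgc
ddp-1 (chrIII:1859724-1859763, minus strand): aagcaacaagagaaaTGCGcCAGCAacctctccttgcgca
ubxn-2 (chrIV:2725973-2726012, plus strand): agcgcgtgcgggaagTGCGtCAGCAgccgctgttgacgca

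Element A lay within 50 bp of the summit in 29 of 223 members (13.0%, exact Clopper-Pearson 95% interval 8.89 to 18.1). It was in 4 of 286 promoter regions next below the members by pooled signal (1.40%, 0.382 to 3.54), whose pooled ranks were 561 to 1120 and which met the same distance rules. It was in 7 of 8745 weaker promoter regions of the pooled list (0.080%, 0.032 to 0.165). It was in 31 of the 19863 promoter windows (0.156%), which miss most of each promoter and are not centred on summits. It was in 0 of the 98 promoter regions at small RNA genes, which allows a share of up to 3.69%, and in 0 of the members' own flanking windows centred 400 bp to either side. The intervals cover counting error over regions only, and neighbouring regions are not independent.

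The centre of element A lay a median of 15.5 bp from the summit over 30 instances, and 25 of the 30 lay within 25 bp of it. The search reached only 50 bp from the summit, in the windows the element was chosen from, so these distances are a description. Of the 30, 22 ran against the direction of the nearest gene and 8 with it. At 16 of the 29 members there was a head-to-head pair, where running against the nearest gene can mean running with its partner. Instances with and against the nearest gene numbered 14 and 10 for element B and 15 and 9 for element C. They numbered 7 and 9 for element D and 15 and 10 for element E. Seen from the genome, 555 instances of element A were found, 229 of them in promoters, and 30 of those 229 (13.1%, 9.02 to 18.2) had a member summit. The members with element A had a median signal of 196, against 150 for the other members, and 14 of the 29 were among the strongest 56 members, 11 among the next 56, 3 among the next 56 and 1 among the weakest 55. In both replicates' lists 24 of the 29 ranked among the strongest 560 regions, and none of the 29 was on chromosome X, which held 29 members in all. This was not particular to element A. On X were also 0 of the 24 members with element B and 0 of the 14 with element D. For element C it was 2 of 21 and for element E 1 of 23. Whether these counts differ from the share of all members on X was not tested.

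Each of the other elements was likewise most frequent in the members and next most frequent in the regions just below them. Element B was in 24 members (10.8%), element C in 21 (9.42%), element D in 14 (6.28%) and element E in 23 (10.3%). Each was in 0.227% to 0.745% of all promoter windows. Seen from the genome, the share of instances in promoters with a member summit was 1.35% for element B and 2.22% for element C. It was 8.85% for element D and 2.81% for element E, against the 13.1% of element A. Median signal with and without the element was 185 and 151 for element B and 165 and 155 for element C. For element D it was 148 and 157, and for element E 154 and 157. Element B shared 12 members with element A, among them atx-2 and usp-4, and elements D and E shared 7. At least 1 of the 5 was in 81 of 223 members (36.3%, 30.01 to 43.0), against 11.2% of the regions next below, 2.08% of the weaker ones and 1.96% of all promoter windows. The remaining 142 members had none of the 5, the strongest of all, at K12H4.5, among them.

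**Figure D1:**
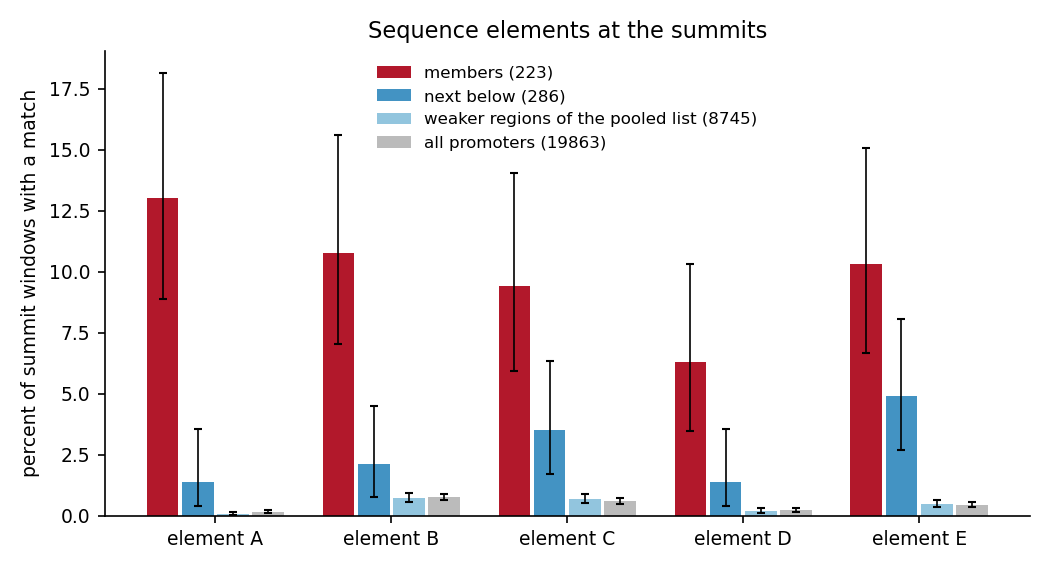
Share of 101-bp windows that hold each of the 5 elements (y axis, percent) in the members, in the promoter regions next below by pooled signal, in the weaker promoter regions of the pooled list and in all promoters. Windows of all promoters are centred 175 bp upstream of each start and the others on summits. Bars are shares and lines are exact 95% Clopper-Pearson intervals for counting error; members stand highest for each element, at 13.0% for element A.

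Known short motifs were counted in the same windows on both strands, and shares of promoters are again those of the promoter windows. The homeodomain core TAATTA was in 5 of 223 member windows (2.24%, 0.732 to 5.15), against 6.50% of the members' flanks and 5.51% of all promoters. Its shorter form TAAT was in 33.2% of member windows, against 62.1% of flanks and 68.0% of promoters. Windows of the promoter regions at small RNA genes held TAAT in 27.6%, those of the reproducible regions far from starts in 30% and those of the regions next below in 42.3%. The TATA box TATAAA was in 4.04% and the GATA site TGATAA in 3.14%, against 13.0% and 11.6% of promoters. In these 3 other parts, in the same order, TATAAA was in 7.14%, 1.43% and 6.64%. TGATAA was in 4.08%, 2.86% and 3.15% of them, and TAATTA in 1.02%, 2.86% and 3.15%. The word GAGAGA was in 13.9% of member windows, against 6.28% of flanks and 8.05% of promoters, and in 12.2%, 25.7% and 19.2% of the other parts. The GC box GGGCGG, which overlaps element B on the other strand, was in 17.9% of member windows, against 1.35% of flanks and 2.38% of promoters, and GCGCGC was in 14.3%, against 1.12% and 1.44%. Promoter regions at small RNA genes held GGGCGG in 6.12%, regions far from starts in 7.14% and regions next below in 6.64%. For GCGCGC these shares were 5.10%, 4.29% and 8.04%. The B box of RNA polymerase III promoters, searched only as GTTCGANNC, was in 3 members, at sms-3, F59C12.4 and jhdm-1, and in 36.7% of the promoter regions at small RNA genes. Forms with A in place of the second G, such as GTTCAATCC at T13C5.6, were not counted. A match describes letters only and is not evidence of binding by any factor.

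GC content in the 101 bp at the summit was 48.7% ± 7.89 (SD, n = 223 members), against 37.2% ± 6.35 in the flanks of the same members. It was 51.0% ± 6.13 in the 98 promoter regions at small RNA genes, where each of elements A to D was in 0 of 98 windows and element E in 1. It was 44.9% ± 10.8 in the 286 regions next below and 34.2% ± 8.19 in the 19863 promoter windows, which were centred 175 bp upstream of each start. Members with any of the 5 elements had a mean of 49.0% GC and those with none 48.5%. The part of GC content in the signal was not tested.

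**Figure D2:**
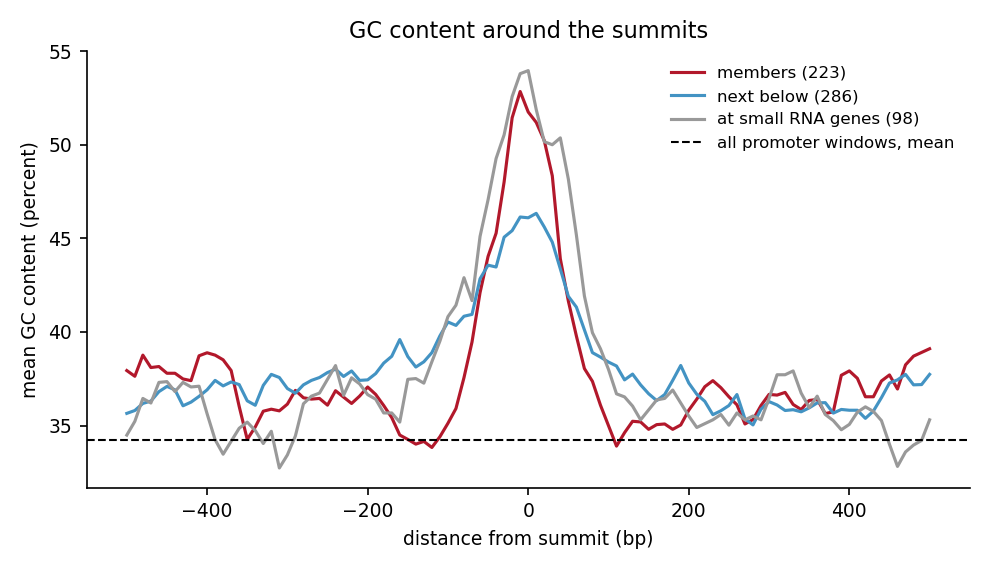
Mean GC content (y axis, percent, 25-bp windows) by distance from the summit (x axis, bp) for the members, the promoter regions next below and the promoter regions at small RNA genes, with the mean of all promoter windows as a dashed line. At the summit the members average 51.7%, the promoter regions at small RNA genes 54.0% and the regions next below 46.1%. The members return to within a few percent of the dashed line by about 100 bp on either side.

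Member summits lay upstream of starts, mostly close by. The median signed distance to the nearest start was −175 bp (quartiles −328 and −82.5), where negative means upstream. Of the 223 summits, 199 were upstream of their nearest start (89.2%, 84.4 to 93.0). This share was 78.3% (73.1 to 83.0) in the regions next below, 55.1% (44.7 to 65.2) in the promoter regions at small RNA genes and 46.4% over all nuclear positions that met the distance rules. The stretch from 1 to 300 bp upstream held 137 member summits (61.4%, 54.7 to 67.9), against 51.4% of those next below, 14.3% of those at small RNA genes and 17.3% of positions.

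The distances peaked just before the start. The bin from 101 to 200 bp upstream held 58 members, the most of any 100-bp bin, and the 100 bp just upstream of the start held 39. From the start to 100 bp downstream there were 8, and beyond that 16. The 26 members over 500 bp upstream included the strongest of all, at K12H4.5, with its summit 526 bp before the start and a signal of 875.

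**Figure D3:**
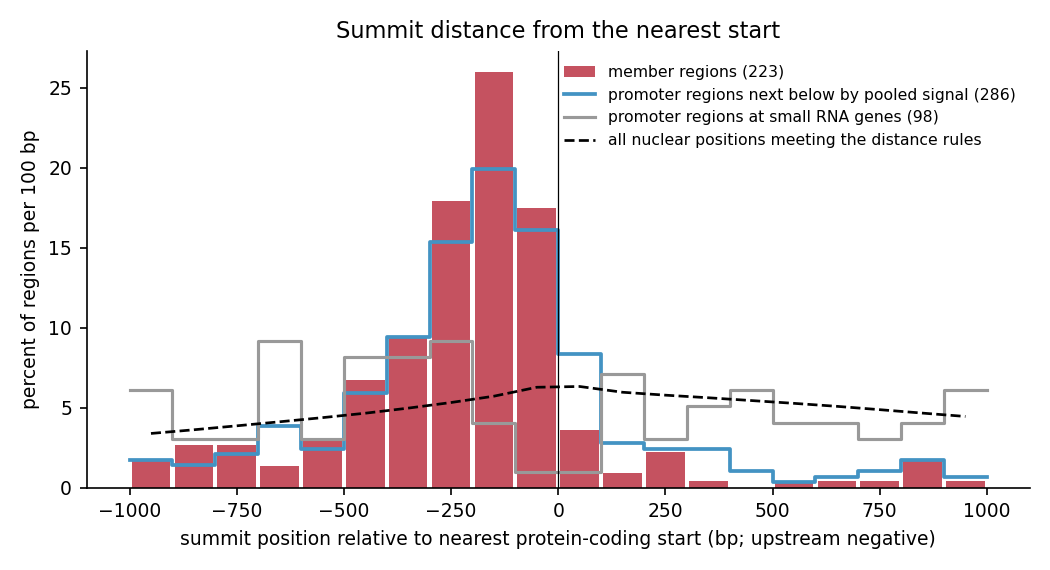
Percent of regions per 100 bp (y axis) by position of the summit relative to the nearest protein-coding start (x axis, bp, upstream negative). Red bars are the 223 members, with the tallest bar between 200 and 100 bp upstream; lines show the promoter regions next below, those at small RNA genes and all nuclear positions that meet the distance rules.

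By annotation, 166 summits lay between genes, 25 in introns, 15 in noncoding genes or pseudogenes outside the small RNA classes, 11 in untranslated exons and 6 in coding exons. An annotated ncRNA gene lay within 200 bp of 31 summits, an antisense RNA of 2 and a piRNA of 1, classes that the rule does not exclude, so the absence of small RNA genes holds for the 5 named classes alone. Chromosome V held 14.8% of members and 24.2% of the positions that met the distance rules. Chromosome III held 18.8% of members and 12.7% of those positions, and X held 13.0% and 14.9%.

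The distance thresholds cut through similar regions. Just inside the limit of 1000 bp were the members nearest fbxb-58 and B0284.3, both at 991 bp, and just outside it were regions at 1004 bp from dhs-8 and 1033 bp from ulp-4. The members closest to a small RNA gene were those nearest ippk-1, at 277 bp from a snoRNA gene, and Y87G2A.18, at 283 bp from a miRNA gene. The regions set aside with the largest such distance were those nearest egg-5, at 182 bp from a snRNA gene, and K05F1.6, at 128 bp from a tRNA gene. The member of lowest signal, nearest Y54G11A.2, had 117.4, and the first region below the list, nearest wip-1, also had 117.4.

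The members served 311 of 19973 protein-coding genes (1.56%), counting every gene with a start within 1000 bp of a summit. A single gene was in reach of 126 members, 2 genes of 91, 3 of 5 and 4 of 1. Of these 311 genes, 103 (33.1%, 27.9 to 38.7) were followed by a start on the same strand within 500 bp of their end, against 18.03% of all protein-coding genes. The share preceded so closely by the end of a same-strand gene was 14.8% (11.04 to 19.2), against 18.1% of all. Close same-strand spacing is a feature of operons, whose annotation was not used here.

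Members were frequent between genes that start back to back. A head-to-head pair, a minus-strand start to the left of a plus-strand start with both within 1000 bp of the summit, was found at 80 of 223 members (35.9%, 29.6 to 42.5). This was so for 26.9% (21.9 to 32.5) of the regions next below, 9.18% (4.29 to 16.7) of those at small RNA genes and 7.93% of positions that met the distance rules. Members and positions also differ in how many lie upstream of the nearest start (89.2% and 46.4%). The part of this in the difference in pairs was not tested. The 80 members fell at 79 distinct pairs. Of the 1910 pairs in the genome with starts at most 1000 bp apart, 75 had a member near both (3.93%). Of the 3749 genes in such pairs 151 had a member (4.03%, 3.42 to 4.71), against 160 of the 16224 other genes (0.986%, 0.840 to 1.15). A single summit within a pair counts for both of its genes, so the last comparison is not one of independent genes.

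Within pairs, summits sat between the starts. This was so for 71 of the 80 (88.8%, 79.7 to 94.7), and 47 of those 71 lay nearer to the middle of the gap than to either start. The nearer start was a median of 156 bp away and the farther one 361 bp, and the nearer one was on the minus strand in 37 cases and on the plus strand in 34. The gap had a median of 464.5 bp and ran from 15 to 1353 bp. Across the genome the share of pairs with a member was 3.26% for gaps of up to 200 bp, 4.30%, 4.14% and 4.21% for the next 3 steps of 200 bp and 3.26% for the last step, up to 1000 bp, with intervals that overlap throughout. Counting only summits between the 2 starts, the shares were 1.09% for gaps of up to 200 bp, from 3 pairs, and then 3.91%, 3.91%, 4.21% and 2.93%.

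**Figure D4:**
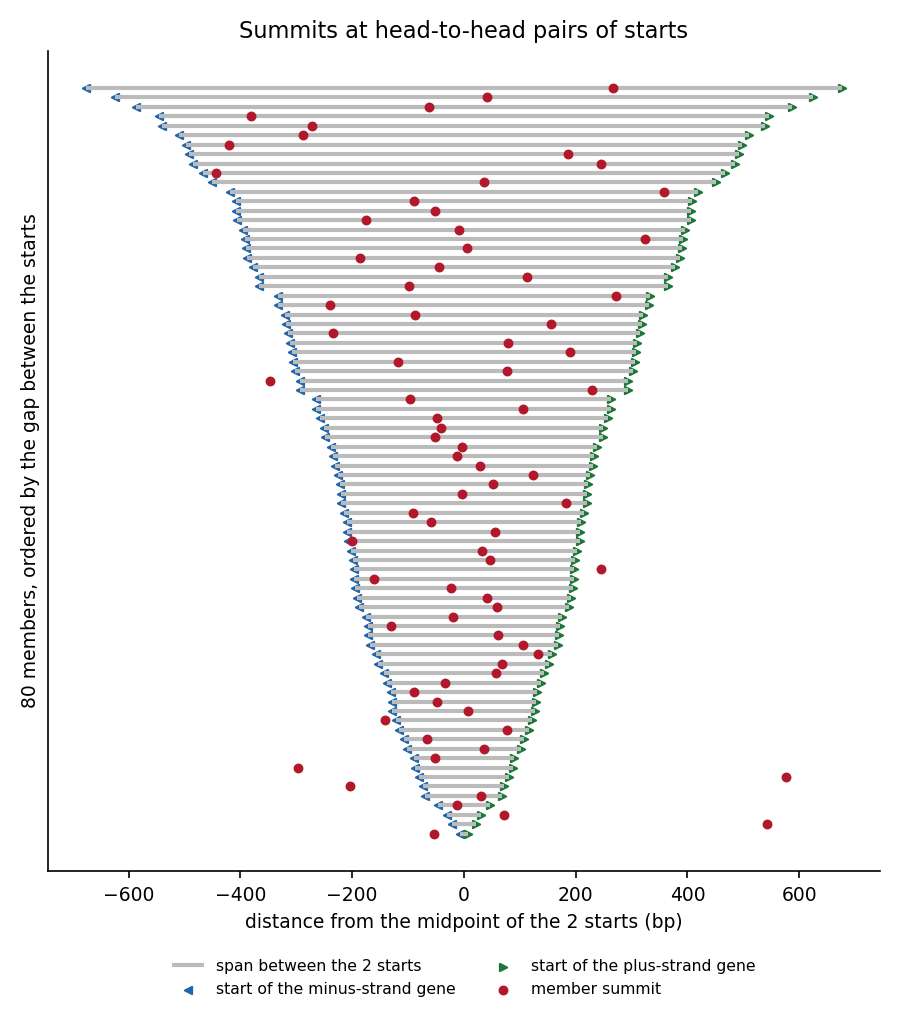
The 80 members at head-to-head pairs, one per row, ordered by the gap between the starts with the widest at the top; the x axis is the distance from the midpoint of the 2 starts in bp. Triangles are the starts of the minus-strand and plus-strand genes and red points are member summits, 71 of which lie on the grey span between the starts.

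The strongest pair was ecps-1 and atx-2, the worm ataxin-2 gene, with starts 838 bp apart, a signal of 563 and the summit 61 bp before atx-2. Next was ears-2, a glutamyl-tRNA synthetase gene, with uncp-18. Their starts are 92 bp apart and the signal was 561, with the summit 34 bp before ears-2. The pair of mlcd-1 and idhg-1, an isocitrate dehydrogenase subunit gene, had a gap of 667 bp and a signal of 477. The pair of spe-48 and Y51F10.11 had a gap of 180 bp and a signal of 431, and that of nmad-1 and hach-1 a gap of 516 bp and a signal of 398. In these 5 pairs the summit lay between the starts each time.

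At the 3 closest pairs the summit lay outside the gap. F25H9.6 and F25H9.7 start 15 bp apart, and the summit lay 46 bp inside F25H9.6. The starts of clec-53, a C-type lectin gene, and uba-5, a gene for an activating enzyme of a ubiquitin-like protein, are 42 bp apart, and the summit lay 268 bp downstream of the nearest start, another start of uba-5, in an intron. Y57E12AL.6 and Y57E12AL.1 start 60 bp apart, with the summit 19 bp downstream of the start of Y57E12AL.1. Their signals were 139, 177 and 185.

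Of the 15 strongest members, 6 stood at head-to-head pairs, the sixth being that of dad-1, an oligosaccharyltransferase subunit gene, and tre-1, a trehalase gene, with a signal of 360. The first place belonged to K12H4.5, with a signal of 875. T13C5.6 on chromosome X, with C14F11.7 also in reach, had 524, and ftt-2, a gene for a 14-3-3 protein, had 468. Unlike most, ints-8, a gene for a subunit of the Integrator complex, had its summit 869 bp inside the gene, in an intron, with a signal of 450. The others were M01F1.9 (410), D2096.7 (392), W01D2.3 (377), C46F11.4 (362) and K05C4.2 (361).

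Several members at 1 gene were uncommon. The most were 3 near egl-30, which encodes a Gq alpha subunit, and 3 near mdt-26, which encodes a Mediator subunit. A further 12 genes had 2, among them klp-6 for a kinesin, eel-1 for a ubiquitin ligase, dnj-29 for a DnaJ-type chaperone, hmg-1.1 for an HMG-box protein and sto-4 for a stomatin. Of all members, 8 overlapped a member before them on the chromosome. Such neighbours share reads, and 8 members shared their replicate 1 region with another member and 10 their replicate 2 region.

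The start of lin-11 itself was among the members. Its summit lay 13 bp upstream of the start, between genes, with a pooled signal of 179, which placed it 288th in the pooled list, 278th in replicate 1 and 319th in replicate 2. It was the one gene with a member among 91 homeobox genes (1.10%, 0.028 to 5.97), an interval that holds the 1.56% of all protein-coding genes. Reads from the lin-11 transgene cannot be told apart from those of the endogenous gene.

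Several lists of genes with general cellular roles had shares above that of all genes. The lists are groups of gene symbols, and their shares are set beside the 1.56% of all protein-coding genes as a description. Ribosomal protein genes of the cytoplasm had 10 of 81 (12.3%, 6.08 to 21.5), led by rpl-3 with a signal of 286, rps-20 with 223, rpl-20 with 213, rps-19 with 211 and rpl-35 with 194. In 5 of the 10 the ribosomal protein gene was the nearest gene. Nuclear pore and transport genes had 5 of 40 (12.5%, 4.19 to 26.8), with npp-8 at 218 and npp-6 at 200. A nuclear pore gene was the nearest gene in 1 of the 5, and at the npp-6 member the nearest gene was spd-5. General transcription genes had 7 of 70 (10%, 4.12 to 19.5), among them mdt-26 at 245, mdt-6 at 185 and rpac-19, for a subunit of RNA polymerases I and III, at 176. The listed gene was the nearest one for 3 of the 7.

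The respiratory chain had 5 of 51 (9.80%, 3.26 to 21.4), led by nuo-2 at 165 and cyc-1 for cytochrome c1 at 148. Translation factors had 4 of 44 (9.09%, 2.53 to 21.7), led by eif-3.C at 289 and erfa-3 at 195. Chaperones had 6 of 67 (8.96%, 3.36 to 18.5), led by dnj-29 at 348 and hsp-60, for the mitochondrial chaperonin, at 245. A chaperone gene was the nearest gene for 4 of the 6, and at the hsp-60 member the nearest gene was Y22D7AL.10. For membrane traffic the count was 5 of 99 and for cell cycle and replication 3 of 68, including cdc-48.1 at 262 and cdk-9 at 177. Other counts were 3 of 76 for chromatin, 3 of 74 for ubiquitin conjugation, 2 of 60 for splicing, where neither was the nearest gene, 2 of 70 for mitochondrial ribosomal proteins, and 1 each of 31 aminoacyl-tRNA synthetases, 33 proteasome genes and 13 mitochondrial import genes. The regions next below, which lay near 1.89% of all genes, also lay near 14.8% of the ribosomal protein genes, 13.4% of the chaperones, 9.09% of the translation factors, 7.84% of the respiratory chain, 5.71% of the general transcription genes and 3 of the 40 nuclear pore and transport genes.

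Several large gene families had few or no members. Chemoreceptor genes had 3 of 1309 (0.229%, 0.047 to 0.668), namely sre-1, sri-5 and srh-16, and for sre-1 the nearest gene was B0495.9. F-box and MATH genes had 4 of 395 (1.01%, 0.277 to 2.57) and C-type lectins 1 of 240 (0.417%, 0.011 to 2.30), and both intervals hold the 1.56% of all genes. No member lay near any of 269 nuclear hormone receptor genes, 158 collagens, 141 detoxification genes, 140 neuropeptide genes, 72 histone genes or 20 pan-neuronal genes. At these list sizes a count of 0 allows shares of up to 1.36% for the nuclear hormone receptors, 2.31% for the collagens, 2.58% for the detoxification genes, 2.60% for the neuropeptides, 4.99% for the histones and 16.8% for the pan-neuronal genes, so that of these 6 limits only the one for nuclear hormone receptors is below 1.56%. In the regions next below, 7 histone genes (9.72%) and 4 nuclear hormone receptor genes (1.49%) did have one. All lists together held 67 of the 311 genes, and the other 244 were in no list.

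The replicates' own lists placed the members high but not identically. Replicate 1 listed 219 of the 223 summits inside one of its 21441 regions and replicate 2 listed 222 inside one of its 18735. The median rank by signal was 344 in replicate 1 and 354 in replicate 2, from 19 to 4443 in replicate 1 and from 21 to 8669 in replicate 2. Among the strongest 560 regions of both replicates were 136 members (61.0%, 54.2 to 67.4), and 10 were in neither set. The reproducible list was derived from these same lists, so this is no independent check. The same share was 87.8% (79.6 to 93.5) for the 98 promoter regions at small RNA genes, 57.1% (44.7 to 68.9) for the 70 regions far from protein-coding starts and 0.699% (0.085 to 2.50) for those next below.

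By pooled signal, 54 of the strongest 56 members were among the strongest 560 of both replicates, then 52 of the next 56, 27 of the next 56 and 3 of the weakest 55. The pooled signal comes from the same replicates, so the way members were ordered in part sets this fall. Over the 218 members listed in both, ranks differed by at most a factor of 2 in 162, and Spearman's rho across members was 0.51, a description over regions that share the control. Within the 4 sets by pooled signal, from strongest to weakest, rho was 0.69, -0.55, -0.63 and -0.61. Among members of similar pooled signal, a better rank in 1 replicate tends to go with a poorer one in the other. The cut itself thus in part sets these values, and they do not measure agreement. In the regions next below, also cut by pooled rank, rho was -0.46. The replicate summits of the members lay a median of 26 bp apart. Members at head-to-head pairs were in both strong sets in 61 of 80 cases (76.2%, 65.4 to 85.1), and the others in 75 of 143 (52.4%, 43.9 to 60.9). Median pooled signal, which is not independent of rank, was 170 at pairs and 149 elsewhere.

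The members with the best poorer rank were K12H4.5 (ranks 19 and 21 in replicates 1 and 2), ears-2 (34 and 48), atx-2 (36 and 50), T13C5.6 (52 and 36) and idhg-1 (50 and 63). Ranks were over 5 times apart at 15 members, 12 of them poorer in replicate 2. The farthest apart was that of unc-60, a cofilin gene, at rank 292 in replicate 1 and 8669 in replicate 2. The member of hsp-1, an Hsp70 chaperone gene, ranked 4443 in replicate 1 and 243 in replicate 2. In the same order of replicates, that of rps-28 ranked 179 and 2854, that of cyc-1 298 and 3460 and that of cpf-2 252 and 2301. Replicate 1 listed no region over 4 member summits, 2 of them at W01D2.3 and 1 each at Y62F5A.12 and Y54G11A.2, and replicate 2 none at Y32B12B.4.

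**Figure D5:**
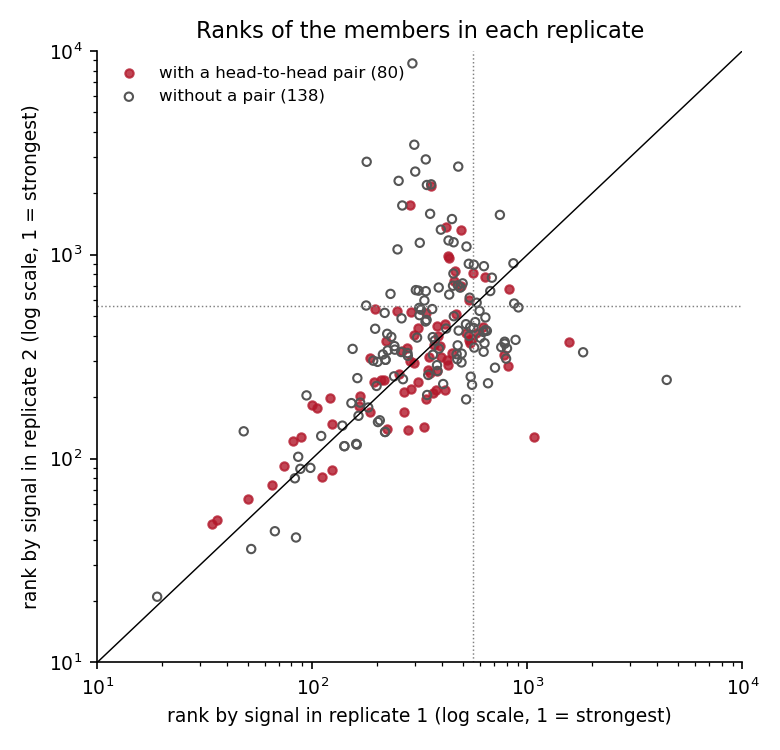
Rank by signal in replicate 1 (x axis) and replicate 2 (y axis), both on log scales with 1 the strongest, for the 218 members listed in both. Filled red points are the 80 members at head-to-head pairs and open points the 138 others; dotted lines mark rank 560 and the diagonal marks equal ranks, with unc-60 the highest point at 8669.

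Peak width followed signal as well. A width of 430 bp was listed for 177 members and a narrower one for the other 46, of which 37 were among the strongest 56 and 0 among the weakest 55.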

How the data were processed

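Chromatin from 2 biological replicates of 1 group was profiled by ChIP-seq, per the labels. The authors deposited lists of regions on assembly ce11 (WBcel235), with a signal value per region relative to a control alignment, a deposited −log10 q value and a summit offset: 21441 regions for replicate 1, 18735 for replicate 2, 20692 for both pooled, and 560 that passed the irreproducible discovery rate. Neither the aligner nor the peak caller is named (not given in the sources used here). Read depth is unknown, and intervals reflect only how many regions or genes were counted. Signal was used to rank regions within a list and to describe members by their pooled-list values; −log10 q was not used for ranking.

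Summits were set against protein-coding starts of Ensembl release 115 and sequence from RefSeq. GC content, 13 motifs and all 6-letter words were taken within 50 bp of each summit, on both strands, and in flanks centred 400 bp away. A member's rank in a replicate is that of the region there that contains its summit. Shares have exact Clopper-Pearson 95% intervals. No test was made, since the signal chose the members. The members, the 25 gene lists and the motifs were chosen with earlier results of these data known. Named genes are those of the 15 strongest members, up to 5 per list, the 5 strongest and 3 closest head-to-head pairs, genes with several members, extremes of rank, and both sides of each threshold; those named at printed sequences and motifs were chosen after their values were seen. Functions were tested on simulated data. Python 3.11.15, numpy 2.4.6, pandas 2.3.3, scipy 1.17.1 and matplotlib 3.10.9 were used.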

Additional observations from a re-analysis of the deposited data

How the results depend on the processing

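Of 61 values of 11 main results under alternatives, 51 stayed within the main value's 95% interval (or 1 SD for GC content) or, for counts, within 1.5 times it. The other 10 lay outside. A start window of 500 bp gave a median distance of 170 bp, and one of 2000 bp gave head-to-head pairs at 42.7% of regions. Leaving out only summits inside a small RNA gene gave 84.2% upstream. The 112 members of higher signal reached 166 genes, with pairs at 44.6%, 94.6% in the strongest regions of both replicates and element A at 22.3%. Counting only the nearest start left 40 list genes, against 67. With a single replicate's strongest 560 regions in place of the reproducible ones (without replicate 1 or without replicate 2), members numbered 214 to 216, genes 299 to 305, list genes 64 to 78, pairs 36.1% to 36.9%, upstream summits 83.8% to 88.3% and element A 10.2% to 12.6%; histone genes with a member numbered 3 without replicate 1. With RefSeq's annotation there were 221 members and 306 genes. Windows of 100 bp each side gave a GC content of 43.6%. Of 139 list and motif values, 30 lay outside their range, mostly motif shares in the wider windows and small lists. The alternatives for element A were added after the data were seen. No paired analysis was possible because the series holds 1 group.

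Limits: 1 strain and 1 age were profiled, both replicates share a control, and no untagged worms or input values were analysed here. A summit within 1000 bp does not show which gene, if any, is regulated.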
